A study of Mus musculus with 6 samples.

Results

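The 2-cell-stage genes examined here are 9 mouse genes, Zscan4c, Zscan4d, Zscan4f, Tcstv1, Tcstv3, Zfp352, Tmem92, Sp110 and Tdpoz4, taken by name from the gene tables, which list 12626 genes. Rows were found for 4 of the 9, namely Zscan4c, Zscan4d, Zscan4f and Sp110, and the other 5 were not analysed here. They were set beside MERVL-int, a row named for the internal part of the endogenous retrovirus MERVL, which is 1 of 302 transposon families listed separately. RNA-seq was performed on J1 WT mouse ES cells, kept throughout on gelatin without feeders and with LIF, before and after a change of medium. The 6 samples are biological duplicates of day 0 (D0), when the cells were in serum, and of D6 and D13 after their transfer to 2i medium with vitamin C (2i+vitC). 2i medium holds an inhibitor of Gsk3 and an inhibitor of MEK, and all samples come from a single ES cell line, so that the days differ in both medium and time in culture.

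In the mouse, the zygotic genome is first strongly transcribed at the 2-cell stage, when MERVL and a set of genes that includes the Zscan4 cluster are switched on for a short time, many of them downstream of the transcription factor Dux. In serum culture, a small and changing fraction of ES cells passes through a state with similar transcripts, known as the 2-cell-like state, in which the long terminal repeats of MERVL (the MT2_Mm family) act as promoters for neighbouring genes. Zscan4 proteins carry a SCAN domain and zinc fingers and are known for their role in telomere maintenance in ES cells, while Sp110 encodes a nuclear body protein that is best known as an interferon-inducible gene. In these bulk samples, fewer cells in such a state and less RNA per cell cannot be told apart.

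The gene tables hold log2 CPM, where CPM is the number of reads on a gene scaled to a common library size, and each value corresponded to a whole number of reads, which is given below as the depth behind a level. Each sample holds 73230745 to 83688345 reads on genes. Each of the 12626 listed genes reached at least 0.991 CPM in at least 3 of the 6 samples, so that a gene present on a single day, in 2 samples, could not be listed. Zscan4c and Zscan4d passed this level through their D0 and D6 samples, Zscan4f through its D0 samples and 1 D6 sample, and Sp110 through its D6 and D13 samples and 1 D0 sample. All 5 ES cell markers looked for had a row. Pou5f1, which encodes Oct4 and defines ES cells, lay between 9.46 and 10.18 log2 CPM in all samples. The other markers were less even. Nanog rose from 7.56 and 7.76 log2 CPM at D0 to 9.67 and 9.66 at D6, with a mean of 9.03 at D13. Sox2 went from 8.82 and 9.13 at D0 to 8.31 and 8.26 at D13, and Zfp42 from a mean of 9.32 to 8.57. Esrrb differed between the 2 D0 replicates, at 7.29 and 8.77. P-values below test differences between the means of days against the spread between replicates, an estimate that borrows from all rows. The 95% intervals on reads (exact Poisson) and on ratios of reads (exact binomial) cover counting error only.

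The 3 Zscan4 genes lie close together on chromosome 7, with Zscan4c at chr7:11005745-11010547 on the plus strand, Zscan4d at chr7:11161374-11166159 on the minus strand and Zscan4f at chr7:11397915-11402318 on the plus strand (GRCm38). Their neighbours are 151 kb and 232 kb apart. Sp110 lies on the minus strand at chr1:85576899-85598817. The promoters of the 3 Zscan4 genes are shown because these genes moved together below and because a large part of their sequence is shared. Each is the 250 bases before the transcription start in the RefSeq annotation of GRCm38.p6, read 5′ to 3′ on the strand of the gene, at chr7:11005495-11005744 for Zscan4c, chr7:11166149-11166398 for Zscan4d and chr7:11397665-11397914 for Zscan4f. Capitals mark exact matches to TATAAA, the TATA box, and to TGATTCAAT, the start of the site that Dux is known to bind.
Zscan4c: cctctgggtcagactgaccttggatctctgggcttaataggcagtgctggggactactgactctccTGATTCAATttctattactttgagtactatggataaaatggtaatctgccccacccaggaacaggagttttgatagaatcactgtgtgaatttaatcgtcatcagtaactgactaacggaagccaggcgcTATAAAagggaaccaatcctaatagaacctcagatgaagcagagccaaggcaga
Zscan4d: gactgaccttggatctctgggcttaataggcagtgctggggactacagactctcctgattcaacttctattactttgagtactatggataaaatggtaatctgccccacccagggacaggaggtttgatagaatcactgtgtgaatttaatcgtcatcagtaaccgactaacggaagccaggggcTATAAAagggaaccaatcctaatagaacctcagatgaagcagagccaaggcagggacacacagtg
Zscan4f: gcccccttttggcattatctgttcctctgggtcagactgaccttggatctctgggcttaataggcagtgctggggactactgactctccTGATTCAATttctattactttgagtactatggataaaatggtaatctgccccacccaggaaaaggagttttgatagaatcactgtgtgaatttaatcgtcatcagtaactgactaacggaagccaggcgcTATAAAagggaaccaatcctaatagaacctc

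Both strands of these windows were searched for TATAAA, TGATTCAAT and GAAANNGAAA, an interferon response element, and no match of one motif overlapped a match of another. TATAAA was found once in each Zscan4 promoter, 26 to 31 bases before the start of Zscan4f, 49 to 54 bases before that of Zscan4c and 60 to 65 bases before that of Zscan4d, and it is present in 12.4% of the 32851 RefSeq promoter windows of this length. TGATTCAAT was found in the Zscan4c and Zscan4f promoters and not in that of Zscan4d, and 0.110% of all windows hold it. The interferon element, held by 2.98% of all windows, was in none of them, and the 2 RefSeq promoters of Sp110 held none of the 3 motifs. In alignment, the Zscan4c and Zscan4f promoters were identical at 99.6% of positions, Zscan4c and Zscan4d at 97.1%, and Zscan4d and Zscan4f at 96.8%.

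The transcripts are as alike as the promoters, with 99.6% identity between Zscan4c and Zscan4f, 97.5% between Zscan4c and Zscan4d and 97.8% between Zscan4d and Zscan4f. Cut into windows of 100 bases, the read length, 89.5% of the Zscan4f transcript and 72.8% of the Zscan4c transcript were identical to a stretch of another annotated gene, mostly Zscan4 genes and pseudogenes, against 29.6% for Zscan4d. Such reads have no single best position, so the split of reads between the 3 genes is uncertain, and only Zscan4d has most of its transcript to itself. Sp110 shares 27.7% of its windows with the neighbouring predicted genes Gm15753 and Gm16026.

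From serum to D13 of 2i+vitC, the 3 Zscan4 genes fell by a factor of 19.7 to 42.4, to 2 to 15 reads per library, while Sp110 did not change past the threshold. MERVL-int fell as well, 4.12-fold, and so by less than any of the 3 Zscan4 genes, a difference that is tested further on and whose size rested on D13 replicate 2. The difference was not seen on log2(CPM + 1), a scale that shrinks changes of low genes. With each replicate left out, the fall of MERVL-int ranged from 2.70-fold without D13 replicate 1 to 6.28-fold without D13 replicate 2. At D6 the Zscan4 genes were already below their serum level in both replicates while MERVL-int was close to its own. No Zscan4 gene passed the threshold in that step, either by itself or relative to MERVL-int.

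Zscan4c had 330 and 294 reads in the 2 D0 replicates, 108 and 98 in the D6 and 14 and 13 in the D13 replicates, which correspond to 2.07 and 1.75, 0.46 and 0.21, and -2.30 and -2.47 log2 CPM. The days did not overlap, and replicates of a day lay close to each other throughout. Zscan4d had 253 and 198 reads at D0, 102 and 153 at D6, then 15 and 3 at D13, or 1.69 and 1.19, 0.38 and 0.85, and -2.21 and -4.42 log2 CPM. Its D0 and D6 samples were nearest to each other, and the 2 D13 samples stood far below both days, with D13 replicate 2 the lowest. Zscan4f had 233 and 234 reads at D0, 55 and 86 at D6, then 9 and 2 at D13, or 1.57 and 1.43, -0.51 and 0.02, and -2.91 and -4.91 log2 CPM. In each of the 3 genes, both D13 values were below both D0 values, as in 35.6% of all genes. Both D6 values lay between those of the other days, an order whose share over all genes was not counted.

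**Figure D1:**
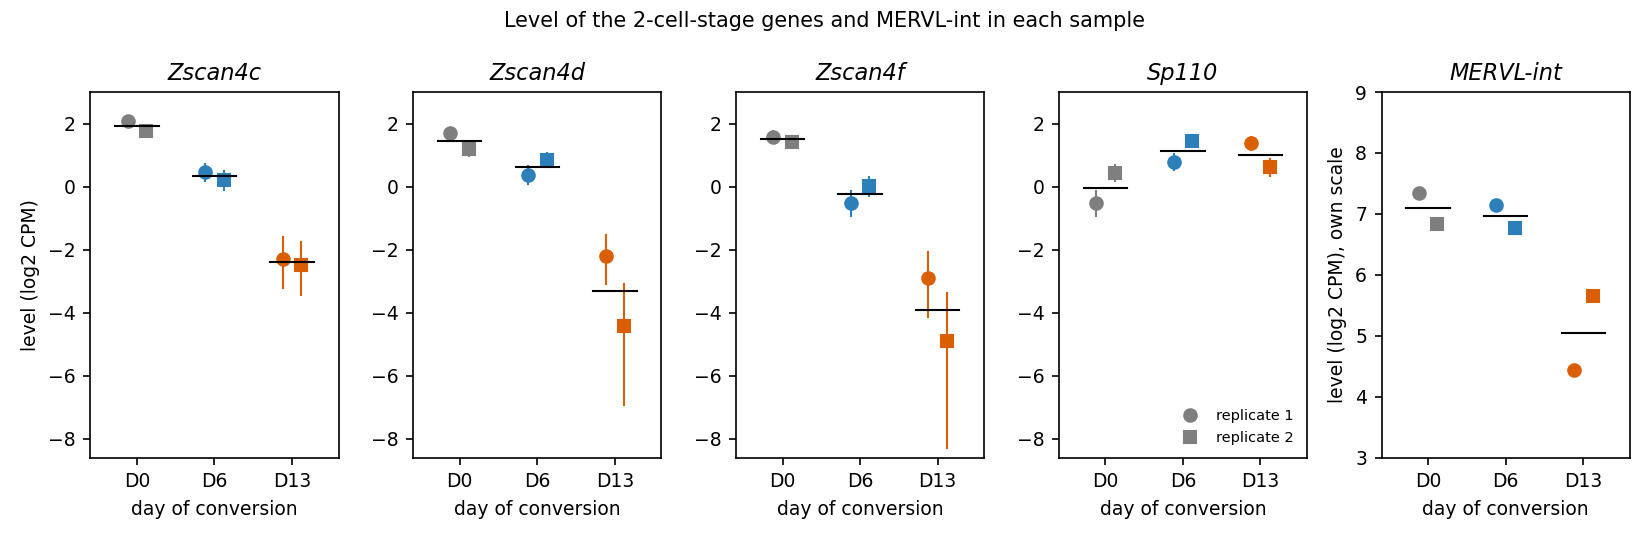
Level in log2 CPM (y axis) of Zscan4c, Zscan4d, Zscan4f, Sp110 and MERVL-int at D0, D6 and D13 (x axis), where circles are replicate 1, squares replicate 2, black lines the mean of 2 replicates and vertical lines the 95% Poisson interval of the reads. The Zscan4 genes have lower values at D6, where none was called against D0, and lower ones again at D13. Sp110 does not fall in this way, and MERVL-int, drawn on its own scale, is lower only at D13.

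Differences between days were tested with limma in a single fit of the 6 samples, with Benjamini-Hochberg adjustment across all 12928 rows, and genes count as called where they differ more than 4-fold and the adjusted p is under 0.05. From D0 to D13, the difference was -4.30 ± 0.45 log2 CPM (SE) for Zscan4c (limma, adjusted p = 0.000166), -4.75 ± 0.72 for Zscan4d (adjusted p = 0.0012) and -5.41 ± 0.70 for Zscan4f (adjusted p = 0.000528). These 3 were the only genes called down among the 4 with a row, in a comparison where 6.01% of all genes were called down and 7.45% up. Counted from the lowest, Zscan4f had the 33rd lowest change of the 12626 genes, Zscan4d the 65th and Zscan4c the 98th. As these 3 genes were listed through their D0 and D6 samples, such ranks describe the listed genes only. With each replicate left out in turn, the differences ranged from -4.14 to -4.46 for Zscan4c, from -3.64 to -5.86 for Zscan4d and from -4.41 to -6.40 for Zscan4f, and all 3 stayed called. On log2(CPM + 1), which shrinks changes of low genes, only Zscan4c was called. As a share of the D0 level in reads, D13 was at 4.90% for Zscan4c (counting interval 3.21% to 7.20%), 4.52% for Zscan4d (2.66% to 7.23%) and 2.67% for Zscan4f (1.32% to 4.82%), so that at this depth the residual levels of the 3 genes could not be told apart.

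From D0 to D6 the differences were smaller, and none of the 4 genes was called in either direction, where 3.9% of all genes were called down and 5.91% up. Zscan4c differed by -1.58 ± 0.45 log2 CPM (limma, adjusted p = 0.033), a 2.98-fold lower level that passed the test but not the 4-fold minimum. Zscan4f differed by -1.74 ± 0.70 (adjusted p = 0.11) and Zscan4d by -0.82 ± 0.72 (adjusted p = 0.47), with a 95% interval of -2.47 to 0.82 for the latter. Without adjustment and without a fold minimum, 2 of the 4 genes had a p under 0.05 in limma, and with a 2-fold minimum 1 gene, Zscan4c, was called. The shares of all genes that pass these looser thresholds were not counted, so nothing is read from either count.

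From D6 to D13, all 3 Zscan4 genes were called down, against 0.697% of all genes called down and 0.388% called up. The difference was -3.93 ± 0.72 log2 CPM for Zscan4d (limma, adjusted p = 0.029), -3.67 ± 0.70 for Zscan4f (adjusted p = 0.031) and -2.72 ± 0.45 for Zscan4c (adjusted p = 0.023). Zscan4d had the 2nd lowest change of the 12626 genes in this step, Zscan4f the 5th and Zscan4c the 29th. These calls were not stable to the loss of a library, since 0 of the 3 were made without D6 replicate 1, without D6 replicate 2 or without D13 replicate 1, where the differences ranged from -2.60 to -2.85 for Zscan4c, from -3.69 to -5.04 for Zscan4d and from -3.40 to -4.67 for Zscan4f. Without D13 replicate 2 the calls held, but the difference was smaller, at -2.82 for Zscan4d and -2.67 for Zscan4f, which turned a 15.2-fold and a 12.7-fold lower level into a 7.06-fold and a 6.37-fold lower one.

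Whether the 2 steps were of unequal size was tested as the second step minus the first. This was -3.11 ± 1.25 log2 CPM for Zscan4d, -1.93 ± 1.22 for Zscan4f and -1.15 ± 0.77 for Zscan4c, with limma adjusted p of 0.19, 0.43 and 0.47. None of the 4 genes was called in this test, where 5.5% of all genes were called below 0, and 1 of them, Zscan4d, had an unadjusted p under 0.05 (limma, 0.036). Without D13 replicate 1, 1 gene, Zscan4d, was called.

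Sp110 took another course. It had 55 and 118 reads at D0, 135 and 232 at D6, then 186 and 114 at D13, or -0.51 and 0.44, 0.78 and 1.45, and 1.38 and 0.61 log2 CPM. Both D0 samples lay below the other 4, but the replicates of each day differed about as much as the days. The difference from D0 to D6 was 1.15 ± 0.51 log2 CPM (limma, adjusted p = 0.14), followed by -0.12 ± 0.51 from D6 to D13 (adjusted p = 0.91) and 1.03 ± 0.51 from D0 to D13 (adjusted p = 0.13). The 95% interval of the last, -0.13 to 2.19, holds values from no change to more than a 4-fold rise. The sign of the D6 to D13 difference depended on 1 library, with 0.21 without D6 replicate 2 and 0.27 without D13 replicate 2.

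**Figure D2:**
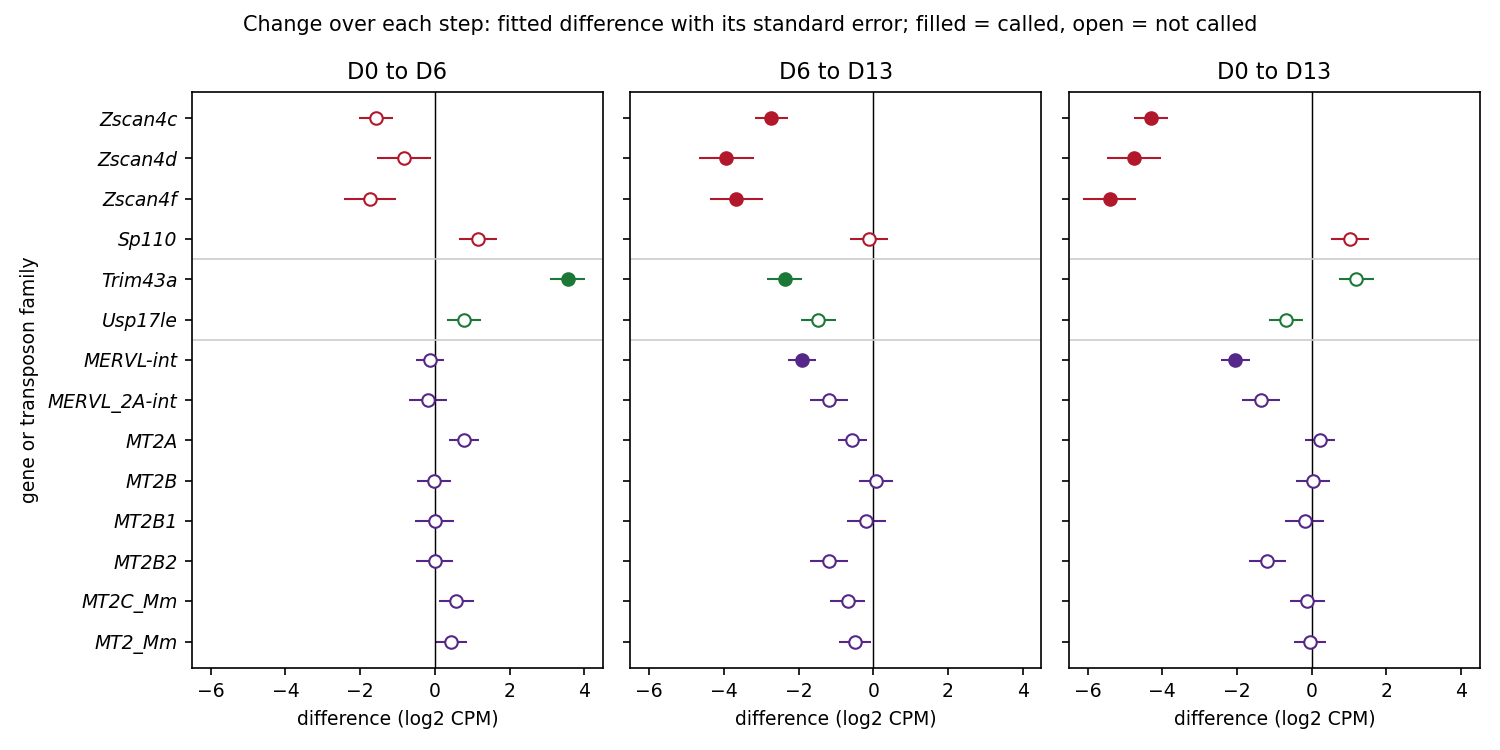
Fitted difference in log2 CPM (x axis) with its standard error from D0 to D6, D6 to D13 and D0 to D13 for the 4 genes (red), Trim43a and Usp17le (green) and the 8 MERVL and MT2 families (purple), one per line on the y axis; filled points were called. The Zscan4 genes are filled in the panels from D6 to D13 and from D0 to D13, at -2.72 to -3.93 and -4.30 to -5.41, and MERVL-int is the only filled family.

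Per kilobase of transcript, the 4 genes were all low in serum. The lengths were not corrected for windows shared with other genes, 89.5% for Zscan4f, 72.8% for Zscan4c, 29.6% for Zscan4d and 27.7% for Sp110. If reads in such windows were left out, the levels of Zscan4f and Zscan4c are the most understated, so the order of the Zscan4 genes is uncertain. Zscan4c had 1.66 ± 0.255 RPKM (SD, n = 2), Zscan4f 1.54 ± 0.107, Zscan4d 1.21 ± 0.293 and Sp110 0.397 ± 0.179, where the values of Zscan4c and Zscan4f overlapped and both values of Zscan4d, 0.998 and 1.41, lay just below both of Zscan4f, 1.47 and 1.62. With all annotated exons of Zscan4f in place of its longest transcript, its values were 1.37 and 1.51 RPKM and overlapped those of Zscan4d. At D13 the order was turned, with Sp110 at 0.798 ± 0.296 RPKM and Zscan4c, Zscan4d and Zscan4f at 0.0811 ± 0.00703, 0.0550 ± 0.0529 and 0.0417 ± 0.0384. With all annotated Sp110 exons in place of its longest transcript, its D0 level was 0.151 RPKM. By log2 CPM, Zscan4c lay above 15.6% of the listed genes at D0, above 4.43% at D6 and above 0.103% at D13, and Sp110 above 4.94%, 9.74% and 8.87%.

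Since reads may be split unevenly among the Zscan4 copies, their levels were also summed, an alternative chosen after seeing the data. The sum does not recover reads that were left out because they match several copies. The sum was 816 and 726 reads at D0, 265 and 337 at D6, then 38 and 18 at D13. In CPM, D0 had 9.34 ± 1.44, D6 had 3.66 ± 0.423 and D13 had 0.386 ± 0.206 (SD, n = 2), so that D6 was at 39.2% and D13 at 4.13% of D0. Zscan4c contributed 40.4% and 40.5% of the summed reads in the 2 D0 samples and 40.8% and 29.1% in the 2 D6 samples, while Zscan4d contributed 31.0% and 27.3% at D0 and 38.5% and 45.4% at D6. Zscan4d thus made up more of the sum in both D6 samples than in both D0 samples, and Zscan4f less, with 28.6% and 32.2% at D0 and 20.8% and 25.5% at D6. At D13, where the sum was 38 and 18 reads, the shares were too thinly covered to compare.

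MERVL-int, the reference for these genes, had 162 and 115 CPM at D0, 142 and 110 at D6, then 21.7 and 50.5 at D13, or 7.34 and 6.84, 7.15 and 6.78, and 4.44 and 5.66 log2 CPM. D0 and D6 overlapped and both D13 samples were below all others. A family was called at more than a 2-fold difference with an adjusted p under 0.05. From D0 to D6, MERVL-int differed by -0.13 ± 0.38 log2 CPM (adjusted p = 0.85 in limma), a sign that turned to 0.12 without D0 replicate 1 and to 0.06 without D6 replicate 2, and 0% of the 302 families were called down. None of the 8 MERVL and MT2 families had an unadjusted p under 0.05 in limma in this step. From D6 to D13 it fell by 1.91 on the log2 scale (SE 0.38, limma adjusted p = 0.034), where 3.97% of families were called down, and from D0 to D13 by 2.04 (adjusted p = 0.0032), where 5.63% were. As for the Zscan4 genes, the D6 to D13 call was lost without D6 replicate 1, without D6 replicate 2 or without D13 replicate 1. Its mean CPM went from 138 ± 33.7 in serum to 126 ± 22.9 and then 36.1 ± 20.3 in 2i+vitC (SD, n = 2), which is 90.8% of D0 at D6 and 26.1% at D13.

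**Figure D3:**
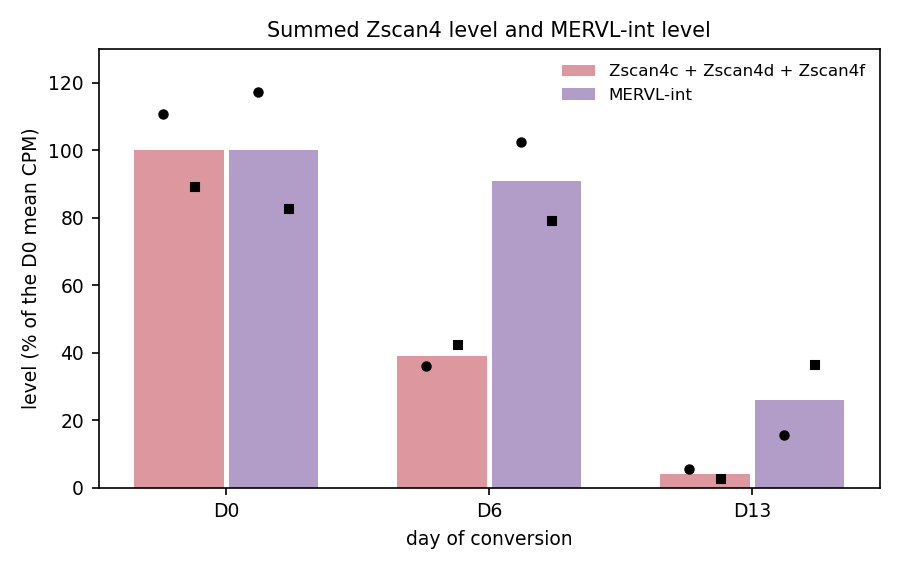
Summed level of Zscan4c, Zscan4d and Zscan4f (red) and level of MERVL-int (purple) as a percent of the D0 mean CPM (y axis) at D0, D6 and D13 (x axis), with bars for the mean of 2 replicates, circles for replicate 1 and squares for replicate 2. At D6 the Zscan4 sum is at 39.2% and MERVL-int at 90.8%, and at D13 they are at 4.13% and 26.1%.

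To ask whether the genes followed MERVL-int, its log2 CPM was subtracted in each sample and the remainder was tested in the same way, without a trend of the spread on the level. From D0 to D13, Zscan4c changed by -2.26 ± 0.67 log2 units relative to MERVL-int (limma, adjusted p = 0.0019), Zscan4d by -2.71 ± 0.67 (adjusted p = 0.000225) and Zscan4f by -3.36 ± 0.67 (adjusted p = 4.48e-06). Below MERVL-int in this sense were 1.65% of all genes. Sp110 changed by 3.07 ± 0.67 in the other direction (adjusted p = 2.89e-05), as did 72.9% of all genes, so that Sp110 was in the company of most genes and the Zscan4 genes were not.

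The values of MERVL-int enter every row of this fit, which therefore gave all rows the same standard error and took it as well known. With the errors of the gene and of MERVL-int added instead, an alternative chosen after seeing the data, the D0 to D13 difference kept an adjusted p between 0.00049 (Sp110) and 0.0081 (Zscan4d) from the limma errors of both rows, where 1.91% of genes were below and 81.1% above MERVL-int. On log2(CPM + 1), 1 of the 4 genes was called in this comparison. On that scale, Zscan4c differed by -2.00 from D0 to D13, Zscan4d by -1.72 and Zscan4f by -1.82. MERVL-int, whose higher level is hardly shrunk, differed by -2.01, so no Zscan4 gene fell more than it did. Sp110 was at 0.59. The size of the difference rested on D13 replicate 2. Without it, Zscan4c changed by -1.56 relative to MERVL-int (limma, adjusted p = 0.013), Zscan4f by -1.76 (adjusted p = 0.0052) and Zscan4d by -0.99 (adjusted p = 0.12), and the last was no longer called.

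For the step from D0 to D6, none of the 4 genes was called relative to MERVL-int, where 3.99% of all genes were below and 7.03% above it, although Zscan4c and Zscan4f had an unadjusted p under 0.05 in the limma fit (0.032 and 0.017). The differences were -1.45 ± 0.67 for Zscan4c, -1.61 ± 0.67 for Zscan4f, -0.69 ± 0.67 for Zscan4d and 1.28 ± 0.67 for Sp110, with adjusted p of 0.20, 0.12, 0.85 and 0.31. In fits without D13 replicate 1, without D13 replicate 2 or with only the D0 and D6 samples, 2 of the 4, Zscan4c and Zscan4f, were called. From D6 to D13, Zscan4d changed by -2.02 (limma, adjusted p = 0.0067), Zscan4f by -1.75 (adjusted p = 0.015) and Sp110 by 1.79 (adjusted p = 0.014), while Zscan4c, at -0.81, did not pass (adjusted p = 0.24). In that step 0.0713% of all genes were below MERVL-int and 79.9% above it. With the errors of both rows added, Zscan4f no longer passed (adjusted p = 0.053), Zscan4d did (adjusted p = 0.033), and 0.0792% of genes were below and 87.7% above. The difference of the Zscan4 genes in this step rested on D13 replicate 2, without which Zscan4d was at -0.30 (limma, adjusted p = 0.63), Zscan4f at -0.15 (adjusted p = 0.81) and Zscan4c at -0.12 (adjusted p = 0.85). The count of 3 called genes dropped to 0 without D6 replicate 1, and to 1, which was Sp110, without D6 replicate 2 or without D13 replicate 2.

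In log2 ratio to MERVL-int in the same sample, Zscan4c stood at -5.27 and -5.09 at D0, -6.69 and -6.56 at D6, then -6.74 and -8.13 at D13. Zscan4d stood at -5.66 in both D0 samples, at -6.77 and -5.92 in the D6 samples and at -6.65 and -10.1 in the D13 samples. For all 3 Zscan4 genes, the ratio of D13 replicate 1 was within or next to the range of D6, and D13 replicate 2 was well below it. Within D13, the replicates ranked the 2 kinds of transcript in opposite order. D13 replicate 1 had the higher Zscan4 sum, at 0.532 against 0.240 CPM, and the lower MERVL-int level, at 21.7 against 50.5 CPM. The ratio of MERVL-int to summed Zscan4 CPM was 15.7 and 13.8 at D0, 42.2 and 27.7 at D6, then 40.8 and 210 at D13, so that all later samples were above both D0 samples, while D6 and D13 overlapped, with D13 replicate 1 between the 2 D6 samples.

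**Figure D4:**
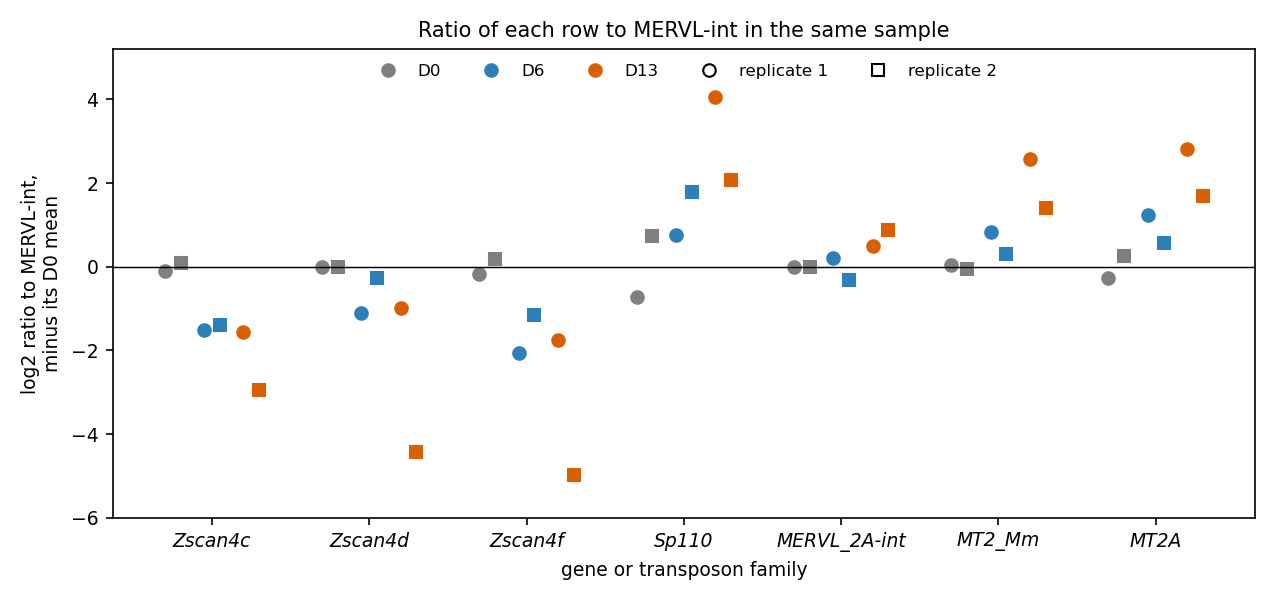
Log2 ratio of each row to MERVL-int in the same sample, minus the mean of that ratio at D0 (y axis), for the 4 genes and 3 related families (x axis), with D0 in grey, D6 in blue and D13 in orange, circles for replicate 1 and squares for replicate 2. The Zscan4 genes lie below 0 at D6 and at D13, with D13 replicate 1 near the D6 samples and D13 replicate 2 far below them, while Sp110 and the MT2 families are above 0 at D13.

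None of the other families of the MERVL group was called, although MERVL_2A-int and MT2B2 were 2.57-fold and 2.28-fold lower at D13 than at D0. MT2B2 had 3.33 and 2.95 CPM at D0 and 0.90 and 2.10 at D13, a difference of -1.19 ± 0.50 log2 CPM (limma, adjusted p = 0.086). MERVL_2A-int, an internal part of related elements, had 39.1 and 27.8 CPM at D0, 39.6 and 21.3 at D6, then 7.39 and 22.3 at D13, a D0 to D13 difference of -1.36 ± 0.51 log2 CPM (limma, adjusted p = 0.058). MT2_Mm, the long terminal repeat of MERVL and the promoter of many 2-cell transcripts, had 3.16 and 2.09 CPM at D0, 4.74 and 2.55 at D6, then 2.43 and 2.53 at D13, a D0 to D13 difference of -0.05 ± 0.43 (adjusted p = 0.93) with an interval of -1.02 to 0.92. Its level in reads, 173 to 373 weighted reads per sample, was far below that of MERVL-int, with 1551 to 12790. The authors merged long terminal repeats and internal parts of the same copy before counting, and left out reads in exons. Reads from the long terminal repeats of full MERVL copies may therefore lie in the MERVL-int row. Whether the promoters of full copies changed cannot be read from MT2_Mm. Of the 8 MERVL and MT2 families, only MERVL-int was called in any of the 3 comparisons. Relative to MERVL-int, MT2A, MT2B, MT2B1, MT2C_Mm and MT2_Mm changed upward from D0 to D13 by 1.85 to 2.26 log2 units (limma, adjusted p from 0.0019 to 0.0102), and MERVL_2A-int and MT2B2 did not pass.

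Of 25 further genes known from the 2-cell stage, 2 had a row, Trim43a and Usp17le, and neither followed Zscan4. Both rows were listed through their D6 samples and 1 other sample, D13 replicate 1 for Trim43a and D0 replicate 1 for Usp17le. A high level at D6 is thus part of how these 2 genes came to be listed. Their course does not stand for that of the genes without a row. Trim43a, a tripartite motif gene, had 33 and 30 reads at D0, 370 and 374 at D6, then 84 and 49 at D13, or -1.23 and -1.52, 2.23 and 2.14, and 0.24 and -0.60 log2 CPM. It was highest at D6, with no overlap between days, where the Zscan4 genes were intermediate. From D0 to D6 it rose by 3.56 ± 0.47 log2 CPM (limma, adjusted p = 0.000813), and it fell by 2.36 from D6 to D13 (SE 0.47, adjusted p = 0.033), a call that was lost without any 1 of the D6 or D13 replicates. From D0 to D13 it differed by 1.20 ± 0.47 (adjusted p = 0.068). Usp17le, a deubiquitinating enzyme gene, had 98 and 66 reads at D0, 130 and 144 at D6, then 47 and 41 at D13, and was likewise highest at D6 but lowest at D13, and none of its differences, 0.78, -1.47 and -0.69, was called (limma, adjusted p from 0.10 to 0.27). Per kilobase, Trim43a went from 0.192 ± 0.0268 RPKM at D0 to 2.29 ± 0.106 at D6 (SD, n = 2), above the D6 level of each Zscan4 gene, which ranged from 0.467 to 0.680 RPKM. Trim43a shares 14.8% of its windows with other genes, against 72.8% for Zscan4c and 89.5% for Zscan4f, which limits the comparison with those 2 genes.

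Among regulators of the 2-cell-like state, 3 of 5 activators looked for had a row. Dppa2 and Dppa4, which encode partner proteins that activate Dux and with it the 2-cell programme, both fell from D0 to D13. Dppa2 went from 7.44 and 6.81 log2 CPM at D0 to 5.79 and 5.81 at D6, then 4.28 and 3.67 at D13, and Dppa4 from 7.66 and 7.72 to 6.16 and 6.09 and then 5.76 and 5.08. The D0 to D13 difference was -3.15 ± 0.29 for Dppa2 and -2.27 ± 0.25 for Dppa4 (limma, adjusted p = 9.99e-05 and 0.000246), with no overlap between any days, and the call of Dppa4 was lost without D13 replicate 2, at -1.93. Nelfa, which encodes a subunit of the negative elongation factor, stayed within 6.16 and 6.53 log2 CPM. The median D0 to D13 difference of the 3 was -2.27, against -0.01 over all genes.

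All 21 repressors looked for had a row, and 1 was called in any comparison, against 15.4% of all genes called in any of the 3 in either direction. Lin28a, an RNA-binding protein that with nucleolin restrains Dux, fell from 9.35 and 8.82 log2 CPM at D0 to 4.66 and 5.72 at D6, then 4.26 and 4.09 at D13, a difference of -3.89 ± 0.35 from D0 to D6 and -4.91 ± 0.35 from D0 to D13 (limma, adjusted p = 0.000128 and 3.1e-05). The other 20, among them the H3K9 methyltransferase gene Setdb1, its cofactor Trim28, the chromatin assembly genes Chaf1a and Chaf1b and the maintenance methyltransferase gene Dnmt1, had D0 to D13 differences between -1.16 and 0.41, of which 4 passed an adjusted p under 0.05 without reaching 4-fold (Ehmt1 at -1.16, Rybp at -1.01, Zmym2 at -0.84 and Chaf1a at -0.69). Of all genes, 21.8% were lower at D13 at that adjusted p. The median of the 21 was -0.51 from D0 to D13, against -0.01 over all genes.

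**Figure D5:**
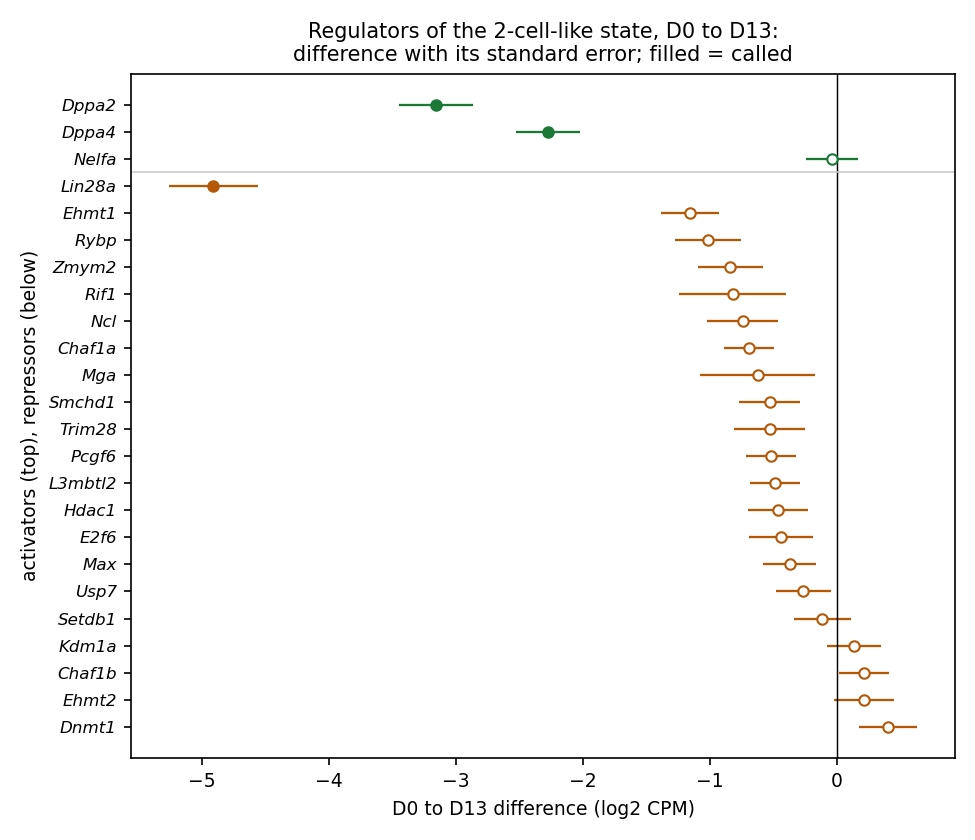
Fitted D0 to D13 difference in log2 CPM (x axis) with its standard error for 3 activators (green) and 21 repressors (brown) of the 2-cell-like state, one per line on the y axis; filled points were called. Dppa2 at -3.15, Dppa4 at -2.27 and Lin28a at -4.91 are filled, and all others lie between -1.16 and 0.41.

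Some markers of other cell types also fell from D0 to D13, and their part in the results above was not tested. The primitive endoderm markers with a row, 3 of 5, summed to 17.8 to 20.4 CPM at D0, 3.48 to 5.42 at D6 and 4.41 to 4.80 at D13, a fall that was that of Dab2 alone. Dab2 went from a mean of 16.3 CPM at D0 to 0.835 at D6 and 0.647 at D13 and was called down from D0 to D6, while Pdgfra, with 1.85, 2.62 and 2.87 CPM, and Sox17, with 0.925, 0.996 and 1.1 CPM, had higher means on the later days and were not called. The trophoblast markers with a row, 2 of 5, summed to 63.8 to 96.2 CPM at D0, 14.2 to 17.0 at D6 and 12.7 to 13.4 at D13, with Krt8 called down from D0 to D6 and Eomes not called. The fibroblast markers, 3 of 5, summed to 10.1 to 29.7 CPM at D0, 4.86 to 5.11 at D6 and 5.50 to 5.62 at D13, and of the 3 Col1a2 was called down from D0 to D13 while Col1a1 and Thy1 were not called. Oocyte genes moved the other way, with 4 of 11 summing to 45.7 to 46.3 CPM at D0, 204 to 205 at D6 and 215 to 357 at D13, where Khdc3 and Ooep were called up from D0 to D13 and Zp3 and Tle6 were not called. The other 14 of these 26 markers, among them defining ones such as Cdx2, Foxa2 and Zp2, were not analysed here. Each of these sums differed more between D0 and D6 than between D6 and D13, the reverse of MERVL-int, and so did the Zscan4 sum on this scale, with 9.34, 3.66 and 0.386 CPM. In log2 CPM the Zscan4 genes differed by -0.82 to -1.74 and then by -2.72 to -3.93, though the test of unequal steps called none. Of the markers called down, Dab2 differed by -4.32 and then -0.34, Krt8 by -2.69 and -0.23 and Col1a2 by -2.13 and -1.73.

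Genes of a like course over the 6 samples were taken by Pearson's r with the mean of the centred log2 CPM of the 4 genes, among 1383 genes that changed at least 4-fold from D0 to D13 and had at least 10 reads in each D0 sample. The 5 highest were Rerg (r = 0.996), a Ras-related growth inhibitor, Slc6a15 (0.983), an amino acid transporter, Muc1 (0.982), a mucin, Nt5e (0.980), an ecto-nucleotidase, and Dapp1 (0.975), a phosphoinositide-binding adaptor. This mean is made of 3 Zscan4 genes and Sp110, so a high r of the 5 with the Zscan4 genes follows from how they were picked. Their r was 0.984 to 0.994 with the mean of the Zscan4 genes alone and -0.38 to -0.49 with Sp110. These values describe 6 samples of 3 days, and 27 genes were above 0.95. Rerg came closest, with 1.34 and 1.11 log2 CPM at D0, 0.20 and 0.64 at D6, then -2.40 and -3.53 at D13. By Spearman's rho, 2 of these 5 remained among the highest, and 38 genes shared the highest rho of 1.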

How the data were processed

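RNA-seq samples of J1 WT mouse ES cells were grouped by the day in their labels (D0, D6 or D13). For genes, read pairs were aligned to mm10 by TopHat2 2.0.6 and assigned to RefSeq genes by HTSeq 0.6.1. For transposon families, reads outside exons were aligned by Bowtie 1.0.0 and a read with several positions was divided among them (versions per the submitters' processing notes). The authors had first merged the annotated fragments of each transposon copy, such as long terminal repeats and internal part. The deposited values are log2 CPM, which the authors made with voom after TMM normalization, without the precision weights.

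The deposited log2 values were tested with limma 3.58.1 (R 4.3.3), with 1 mean per day and a mean-variance trend. The residual degrees of freedom were 3. Reads were read off the values as whole numbers plus 0.5, times a constant per sample. The script was tested on simulated data. RPKM used the longest GENCODE transcript on GRCm38. Tables and alignments were made with Python 3.11.15, pandas 2.3.3 and Biopython 1.88. The genes examined and all lists were chosen with earlier results of these data known. Named genes were all those examined with a row, the MERVL and MT2 families, members of the lists that were called or whose list had 5 or fewer rows, and the 5 genes most alike in course. Alternatives were a read filter, other trends, weights and pseudocounts, stricter or looser thresholds, the replicate number as a block and each sample left out. The replicate numbers share only a number and were not used as pairs.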

Additional observations from a re-analysis of the deposited data

How the results depend on the processing

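The 3 calls from D0 to D13 held in every alternative run but log2(CPM + 1), under which 1 gene was called. The 3 calls from D6 to D13 became 0 with log2(CPM + 1) and 0 with an adjusted p under 0.01, and ranged from 0 to 3 with each replicate left out. From D0 to D6, 1 gene was called with a 2-fold minimum. The unequal-step test gave 0 to 1 calls with each replicate left out. Relative to MERVL-int, the 4 calls from D0 to D13 became 1 with log2(CPM + 1) and 3 to 4 with each replicate left out. The 0 calls from D0 to D6 became 2 with only the D0 and D6 samples and 0 to 2 with each replicate left out. The 3 calls from D6 to D13 became 0 with voom precision weights, 1 with log2(CPM + 1), 1 with an adjusted p under 0.01 and 0 to 3 with each replicate left out. Signs turned for Sp110 from D6 to D13 (0.21 without D6 replicate 2, 0.27 without D13 replicate 2, range from -0.51) and for MERVL-int from D0 to D6 (0.12 without D0 replicate 1, 0.06 without D6 replicate 2, range from -0.38). The call of MERVL-int from D6 to D13 was also lost with the other mean-variance trend. The cause was not tested. With the replicate block, the counts of called genes were the same, at 3 from D6 to D13 and 3 from D0 to D13. The deviations of same-numbered replicates from the means of their days had r of -0.13 (D0 and D6), 0.14 (D0 and D13) and 0.33 (D6 and D13) over genes, and of 0.54, 0.22 and 0.10 over families, so that genes and families differed. With 2 numbers and nothing in the labels to tie them to a shared culture, they were not taken as pairs. From D6 to D13 the block moved the called genes from 137 to 185 and the called families from 12 to 25, and MERVL-int kept its call (adjusted p = 0.0073 in limma). Genes at 2 to 15 reads at D13 limit how well their residual level is known.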
